A study of Mus musculus with 6 samples.

Results

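Meg3, Rian, Mirg, H19, Kcnq1ot1, Airn and Dnm3os are 7 long noncoding RNAs (lncRNAs) of developmental loci. They were taken by symbol from the lncRNA rows of the table, which lists 9413 lncRNAs, 1 row per symbol. All 7 were listed, and all 7 passed the filter of a mean of at least 0.5 FPKM (fragments scaled by transcript length and by library size) over the 6 hearts. Poly(A)-selected RNA had been sequenced from male mouse hearts on a Langendorff system, in which an isolated heart is perfused through its aorta. In 3 hearts (Sham) contraction was not stopped. The other 3 (I/R, ischemia and reperfusion) were held still for 30 min by cardioplegia, a solution that suspends the heartbeat, and were then reperfused for 1 h. Strain, age and genotype were unknown here, and all 6 hearts were isolated and perfused, so no heart stands for tissue in the animal. All differences below are I/R minus Sham.

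Genomic imprinting marks the copies of a gene by parent of origin, usually by DNA methylation at a control region, so that only 1 parental copy is transcribed. In the Dlk1-Dio3 domain the maternal copy yields a row of noncoding RNAs in the same direction: Meg3 first, then Rian, which carries small nucleolar RNAs of the C/D type, and Mirg, which carries a dense microRNA cluster. The paternal copy yields the coding genes Dlk1, Rtl1 and Dio3. H19, maternally expressed next to Igf2, is abundant in fetal tissue and hosts a microRNA. Kcnq1ot1 and Airn are paternally expressed transcripts, largely unspliced and nuclear, known for silencing neighbouring genes on the chromosome that makes them. Dnm3os lies outside the imprinted domains. It runs opposite to Dnm3, is the primary transcript of the microRNAs miR-199a and miR-214, and is known from mesenchymal cells and skeletal growth.

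The microRNAs inside the members show what each transcript can release, and they were located by coordinates and strand in RefSeq (GRCm38.p6). Mirg spanned 14 hairpins, Rian 3, Dnm3os 2, Meg3 1 and H19 1, while Kcnq1ot1 and Airn spanned none. The plus strand from the start of Meg3 to the end of Mirg held 54 hairpins in all. The mature sequences of Dnm3os, of Meg3's miR-770 and of Rian's miR-370 follow 5′ to 3′. The seed (bases 2 to 8, which pair with targets) is in capitals. Another mature sequence inside Meg3, miR-1906, lies 3.59 kb from the start of Meg3 and is not shown. Dnm3os has miR-199a near its start and miR-214 5.77 kb from it.
miR-199a-5p: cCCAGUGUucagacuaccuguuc
miR-199a-3p: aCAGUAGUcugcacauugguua
miR-214-5p: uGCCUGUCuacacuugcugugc
miR-214-3p: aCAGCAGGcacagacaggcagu
miR-770-5p: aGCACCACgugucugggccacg
miR-770-3p: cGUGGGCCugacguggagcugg
miR-370-5p: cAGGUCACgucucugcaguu
miR-370-3p: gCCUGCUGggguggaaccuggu
The 8 sequences carry 8 seeds. Among the 41 mature sequences inside the members, 1 seed occurred in 2 of them, and both lie in Mirg.
miR-453: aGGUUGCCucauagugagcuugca
miR-496a-5p: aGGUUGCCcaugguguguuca
The libraries were made from poly(A) RNA and the table gives no values for mature microRNAs, so the levels below are those of the host transcripts.

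Promoters (250 bases before and 50 after the annotated start, RefSeq, GRCm38.p6) are shown for the first transcript of the imprinted domain, for Rian and for Dnm3os, because Rian and Dnm3os had nearly the same difference between groups (below). Both strands were searched for the cAMP response element TGACGTCA, the E-box CANNTG bound by basic helix-loop-helix factors such as Twist1, and TATAAA. Matches are in capitals. The Meg3 sequence is chr12:109540746-109541045 (plus strand).
Meg3 promoter: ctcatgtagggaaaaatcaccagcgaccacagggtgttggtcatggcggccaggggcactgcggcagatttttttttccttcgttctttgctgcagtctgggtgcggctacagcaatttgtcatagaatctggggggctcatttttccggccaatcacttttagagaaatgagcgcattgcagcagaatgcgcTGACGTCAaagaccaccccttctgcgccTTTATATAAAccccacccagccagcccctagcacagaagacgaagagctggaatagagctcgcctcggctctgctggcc
It held 1 TGACGTCA at position -57 from the start (the start is 0), TATAAA at -25 with a reverse match, TTTATA, that overlaps it at -29, no E-box and 13 CpG dinucleotides. The Rian sequence is chr12:109603695-109603994 (plus strand).
Rian promoter: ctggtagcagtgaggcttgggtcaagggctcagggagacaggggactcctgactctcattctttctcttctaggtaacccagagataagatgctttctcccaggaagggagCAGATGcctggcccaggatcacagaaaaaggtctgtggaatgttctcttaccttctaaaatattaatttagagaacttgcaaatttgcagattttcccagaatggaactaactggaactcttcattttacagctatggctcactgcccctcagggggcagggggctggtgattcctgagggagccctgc
It held 1 E-box at -139 and 0 CpG. The Dnm3os sequence is chr1:162217373-162217672 (plus strand).
Dnm3os promoter: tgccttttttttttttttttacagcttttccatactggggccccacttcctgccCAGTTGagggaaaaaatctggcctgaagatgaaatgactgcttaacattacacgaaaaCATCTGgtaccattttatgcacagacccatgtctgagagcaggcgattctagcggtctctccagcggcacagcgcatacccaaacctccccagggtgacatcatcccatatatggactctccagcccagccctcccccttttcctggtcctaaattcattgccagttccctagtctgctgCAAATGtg
It held 3 E-boxes, at -196, -138 and 42, and 5 CpG. Of 32851 promoters of this length, 1.79% held TGACGTCA, 72.3% held an E-box and 13.6% held TATAAA, with a median of 7 CpG. These matches describe the letters only. The annotated start of Mirg differs from the table's, and its promoter is not shown.

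Meg3, the first and best-known transcript of the domain, known for binding chromatin regulators and for effects on p53, was measured on chr12:109541001-109571726 (plus strand, GRCm38, exon length 14548 bases). Lengths in bases given here and below were recovered from the FPKM values, not read from annotation. Its level was 15.4, 24.1 and 20.3 FPKM in the Sham hearts and 19.7, 32.6 and 30.9 FPKM in the I/R hearts. The groups overlapped, since I/R heart 1 lay below 2 of the 3 Sham hearts. The means were 19.9 ± 4.32 and 27.7 ± 7.02 FPKM (SD, n = 3 each), from 2172 and 2921 reads. The difference on the log2(FPKM + 1) scale was 0.45 ± 0.24 (SE), with an adjusted p of 0.668 in limma over all 12115 genes tested.

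Rian, the snoRNA host that follows Meg3, lies at chr12:109603940-109661716 (plus strand, exon length 8080 bases). Its level was 25.2, 27.9 and 25.8 FPKM in Sham and 36.9, 40.9 and 29.2 FPKM in I/R. All I/R hearts were above all Sham hearts, with I/R heart 3 closest to Sham. The 95% intervals from counting alone overlapped for the nearest hearts. They were 26.8 to 31.8 FPKM in I/R heart 3 and 25.7 to 30.2 FPKM in Sham heart 2. The means were 26.3 ± 1.39 and 35.7 ± 5.95 FPKM (SD, n = 3 each), a ratio of 1.36, from 1601 and 2074 reads. The log2 difference was 0.41 ± 0.15 (95% interval 0.05 to 0.77), with an adjusted p of 0.537 in limma. The unadjusted p was under 0.05, and the difference did not pass after Benjamini-Hochberg adjustment. The exact two-sided permutation test gave 0.1, the smallest p that 3 against 3 hearts allow.

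Mirg, the microRNA host at the far end of the row (chr12:109729764-109749460, plus strand, exon length 3822 bases), was the least abundant of the 3. Its level was 4.78, 5.12 and 7.23 FPKM in Sham and 8.87, 9.47 and 6.01 FPKM in I/R. I/R heart 3 lay below Sham heart 3, so the groups overlapped. The log2 difference was 0.44 ± 0.24, with an adjusted p of 0.665 in limma. Mirg rested on 160 and 223 reads per group. Counting alone then gave a coefficient of variation of 13.7% in Sham and 11.9% in I/R, against 23.3% and 22.8% between hearts, while for Meg3 and Rian counting gave at most 4.38%.

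**Figure D1:**
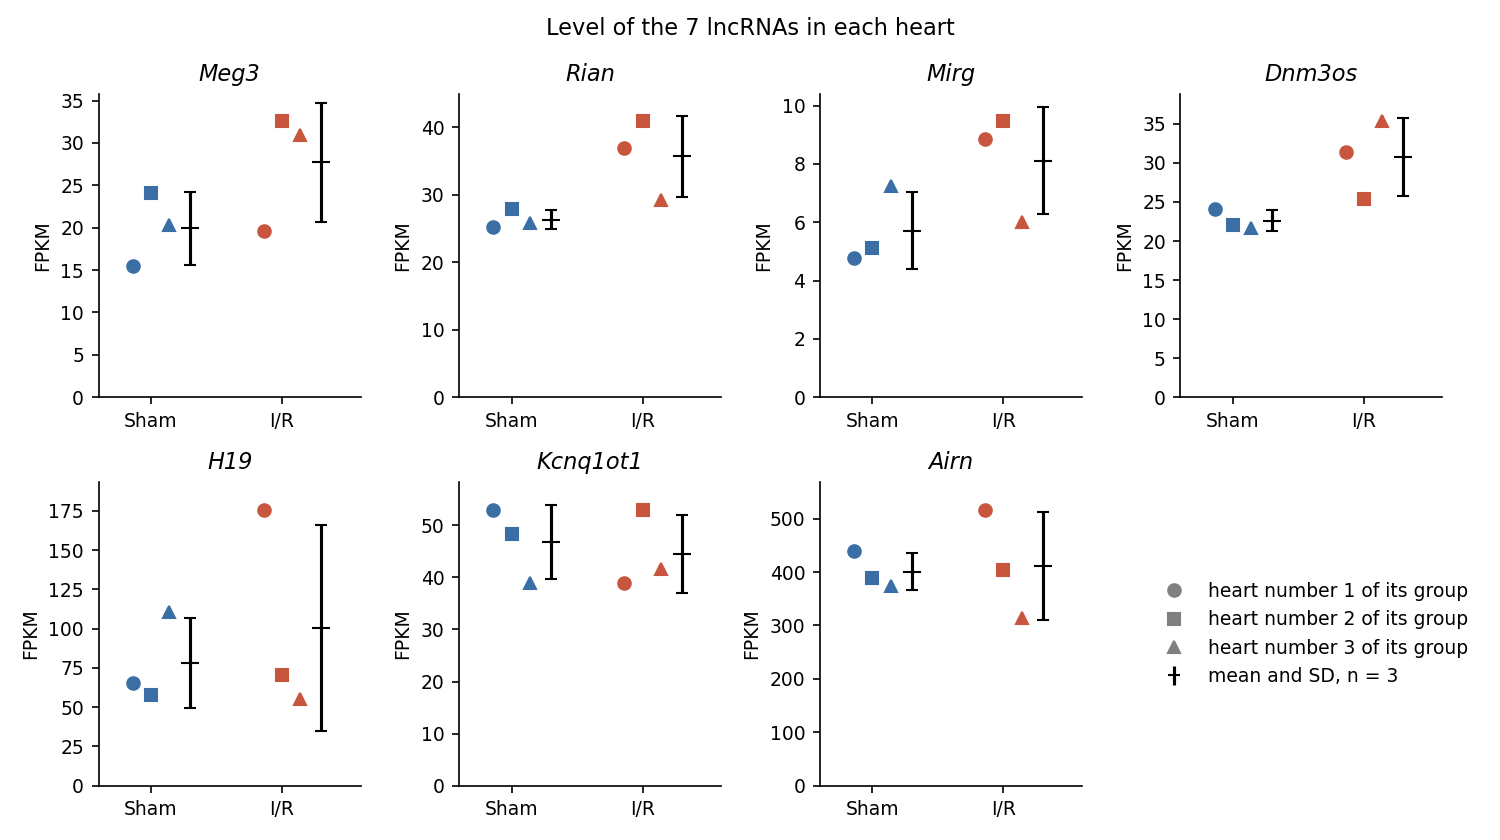
FPKM (y axes, from 0) of each lncRNA in the 3 Sham (blue) and 3 I/R (red) hearts, with the symbol giving the heart's number and the bar the mean and SD. All I/R points of Rian and Dnm3os sit above all Sham points, those of the other 5 lncRNAs overlap, and H19 has 1 I/R heart at 176 FPKM.

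No gene passed the adjusted threshold in this comparison: 0.0% of the 12115 genes were called by limma, with a smallest adjusted p of 0.385, and limma with voom weights on the reads recovered from the table also called 0. At an unadjusted p under 0.05 limma listed 1023 genes, 513 higher and 510 lower in I/R. Among the 7073 lncRNAs tested, 4.81% were higher in I/R at an unadjusted p under 0.05, and 2 of the 7 members, Rian and Dnm3os, were among them. With 1 heart left out in turn, each of the 2 kept an unadjusted p under 0.05 in 2 of 6 fits: Rian only without Sham heart 2 or I/R heart 3, and Dnm3os only without Sham heart 1 or I/R heart 2. All I/R hearts lay above all Sham hearts for 5.87% of the lncRNAs and for the same 2 members. All I/R hearts lay below all Sham hearts for 7.61% of the lncRNAs and for 0 members. Of the 5042 coding genes tested, 173 were higher and 84 lower in I/R at an unadjusted p under 0.05 in limma. For 445 of these coding genes all I/R hearts lay above all Sham hearts, and for 258 below. Each heart gave 2025331 to 2792592 lncRNA reads and 7233171 to 9902397 mRNA reads, as recovered from the values. The 10 most abundant lncRNAs held 49.5% to 51.7% of the lncRNA reads, and the listed mRNA rows held 36.8% to 39.9% of the mRNA reads. Levels of coding genes, markers included, are therefore those of their listed transcripts and can miss reads of other transcripts. Of 15 ventricular cardiomyocyte markers 12 were listed and passed the filter, with summed levels of 11601 to 12612 FPKM. Fabp3 (mean 9478 FPKM) and Hspb7 (mean 2051 FPKM) made up most of that sum, so it says little about the other markers. The labels call the replicates biological and do not say more, so the p-values measure the spread between these 6 samples. In whole tissue, fewer cells of a type and less RNA per cell cannot be told apart.

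The 3 maternal lncRNAs of the domain had almost the same mean difference (0.45, 0.41 and 0.44), against a median of -0.03 over all lncRNAs tested. No shift in their balance within a heart was detected between groups. The Rian to Meg3 ratio of FPKM was 1.63, 1.16 and 1.27 in the Sham hearts, against 1.88, 1.26 and 0.945 in the I/R hearts, a log2 difference of -0.04 (exact permutation p = 0.9). The Mirg to Rian ratio was 0.189, 0.184 and 0.281 in the Sham hearts, against 0.240, 0.231 and 0.206 in the I/R hearts, a log2 difference of 0.08 (exact permutation p = 0.8). The Mirg to Meg3 ratio differed by 0.04 (exact permutation p = 1.0). With 3 hearts a group these p-values do not show that the ratios were equal.

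All 3 were highest in I/R heart 2. Rian and Mirg were lowest among I/R hearts in heart 3, while Meg3 was lowest among I/R hearts in heart 1 and stood at 30.9 FPKM in heart 3. The hearts also differed in atrial cardiomyocyte markers. Myl7 read 0.342, 43.2 and 115 FPKM in Sham and 0.220, 326 and 10.4 FPKM in I/R. Sln read 0, 4.25 and 12.2 FPKM in Sham and 0, 43.2 and 0.679 FPKM in I/R. Both were highest in I/R heart 2, like the 3 lncRNAs, while Nppa was highest in I/R heart 3 (811 FPKM). The part of atrial tissue in the pattern was not tested. Over 6 hearts the Pearson correlation of log2(FPKM + 1) was 0.84 between Rian and Mirg (Spearman 0.83, exact permutation p = 0.0444 and 0.0583), and it was 0.04 without the 2 hearts farthest from the median of Rian, I/R hearts 1 and 2. Those were the hearts with the highest Rian, and the 4 that remained spanned 25.2 to 29.2 FPKM of Rian. Mirg spanned 4.78 to 7.23 FPKM in them, on 51 to 56 reads a heart. With 4 hearts and so narrow a range of Rian, r cannot show whether a relation held. Between Meg3 and Rian r was 0.54 (Spearman 0.66, exact permutation p = 0.272 and 0.175) and -0.25 without Sham heart 1 and I/R heart 2. Between Meg3 and Mirg r was 0.38 (Spearman 0.49, exact permutation p = 0.429 and 0.356) and -0.66 without the same hearts. By deviations from the group means r was 0.68 for Rian with Mirg, 0.07 for Meg3 with Rian and -0.06 for Meg3 with Mirg. In the exact permutation tests of the 21 pairs of members, the smallest adjusted p was 0.803 for Pearson's r and 0.919 for Spearman's rho.

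**Figure D2:**
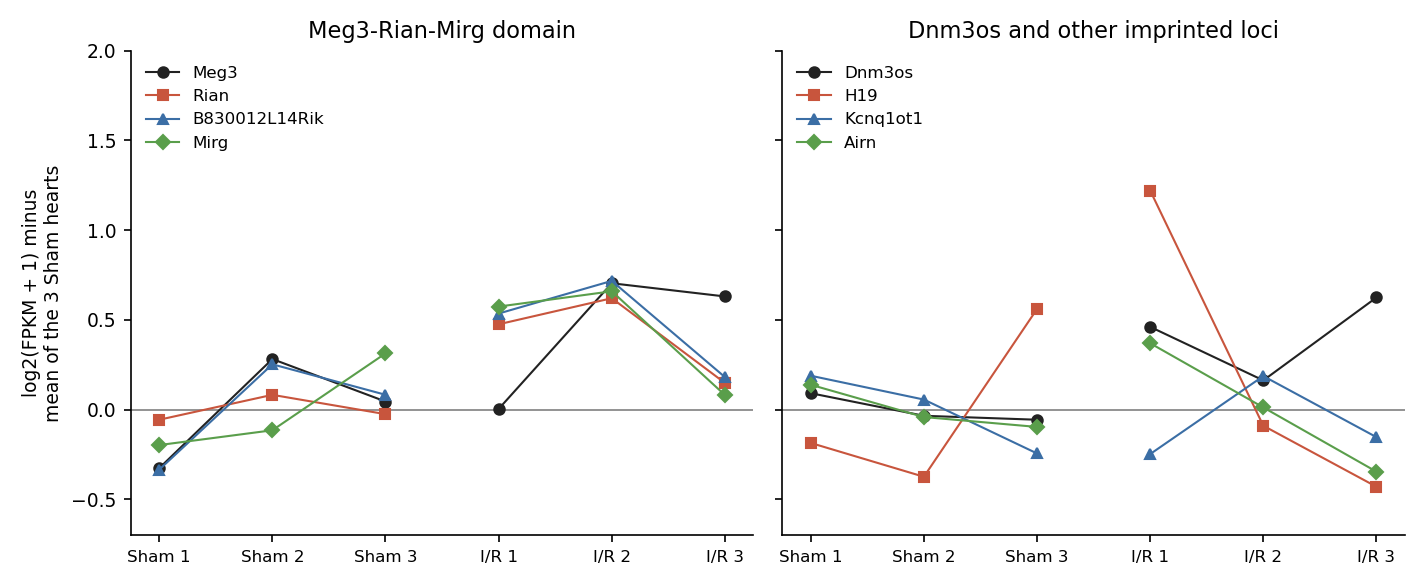
Level of each lncRNA in each heart as log2(FPKM + 1) minus the mean of the 3 Sham hearts (y axis); lines only join the values of 1 lncRNA within a group. On the left Rian, B830012L14Rik and Mirg share the low I/R heart 3 while Meg3 is low in I/R heart 1, and on the right H19 stands at its highest in I/R heart 1.

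The rest of the Dlk1-Dio3 interval was then read on the same scale. Between Dlk1 and Dio3 (chr12:109452485-110281097) the table listed 12 lncRNAs, of which 7 passed the filter, with a median difference of 0.44 and 5 above 0. B830012L14Rik, a plus-strand lncRNA between Rian and Mirg, read 3.33, 5.50 and 4.78 FPKM in Sham and 6.91, 7.97 and 5.19 FPKM in I/R. It differed by 0.48 ± 0.24 in limma (adjusted p = 0.639), with overlap through I/R heart 3. Its correlation with Rian over the 6 hearts was 0.92 and with Mirg 0.83, as a description.

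Gm37899, also on the plus strand and just after Rian, read 2.26, 2.58 and 1.64 FPKM in Sham and 2.95, 2.61 and 1.12 FPKM in I/R, a difference of -0.01 ± 0.29 from 145 and 139 reads. Thus 4 of the 5 plus-strand lncRNAs tested had differences of 0.41 to 0.48 and the fifth was near 0. Over all 7073 lncRNAs tested 12.1% were higher in I/R by at least 0.41, and 9.48% of the 4505 that averaged 5 FPKM or more. On the minus strand, Dio3os, beside the thyroid hormone deiodinase gene Dio3, differed by -0.20 ± 0.32 on 22 and 16 reads. Gm34719 differed by 1.26 ± 0.53 (adjusted p = 0.591 in limma) on 0 reads in Sham and 5 in I/R, with I/R heart 3 also at 0, which is too few to read a change from.

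The 4 tested lncRNAs of the interval that are not members had a median of 0.23. Gm34081, Gm34667, Gm47188, Gm40576 and 4930425K24Rik were under the filter, with at most 4 reads per group. The coding gene Rtl1, expressed from the paternal copy and overlapped by antisense transcripts of the maternal one, was also under it with 33 reads in each group. Dlk1 and Dio3 were not analysed here. The summed reads of the 5 plus-strand lncRNAs were 483, 646 and 570 per 1000000 lncRNA reads in the Sham hearts, against 680, 905 and 745 in the I/R hearts. The sums did not overlap, and Meg3 and Rian hold most of them.

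**Figure D3:**
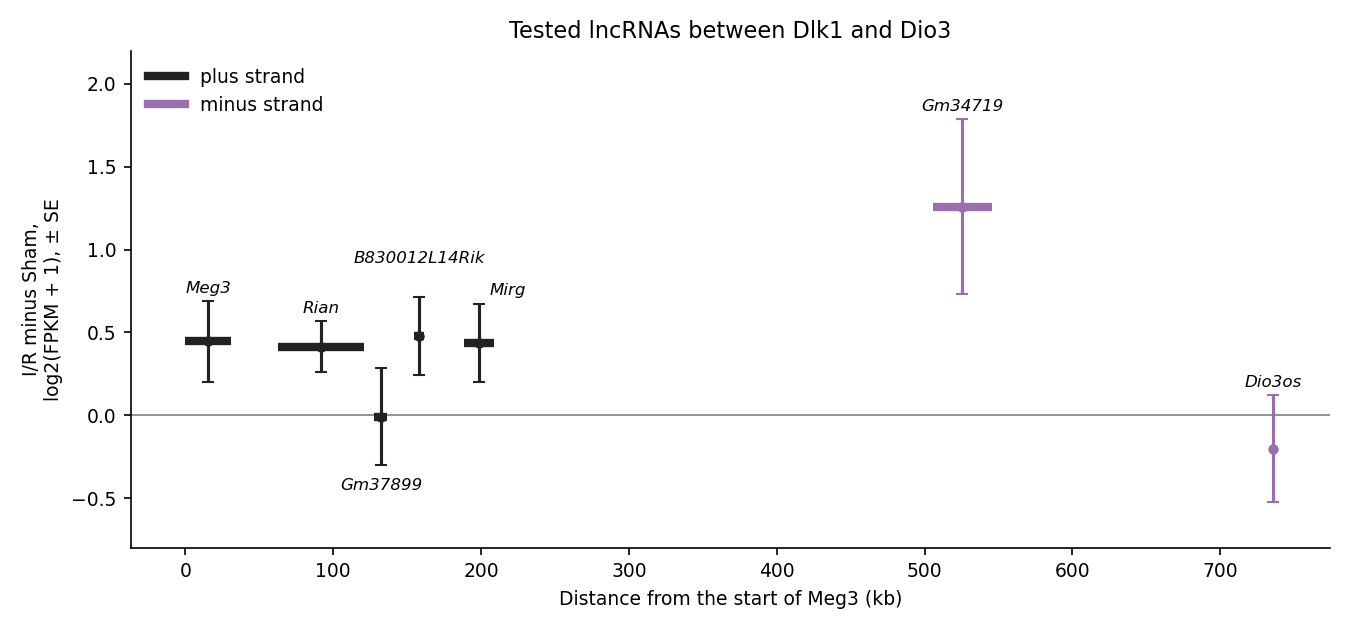
Difference between I/R and Sham in log2(FPKM + 1) with its SE (y axis) for the 7 tested lncRNAs of the interval, placed by distance from the start of Meg3 in kb (x axis, thick bars span each gene). Meg3, Rian, B830012L14Rik and Mirg lie between 0.41 and 0.48, Gm37899 and Dio3os at or below 0, and Gm34719 rests on 5 reads.

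Coding genes on either side of the domain gave no common direction. Of 18 listed flanking genes, 9 were in the table and 5 were tested, with a median of -0.06 and 0 at an unadjusted p under 0.05 in limma. Hsp90aa1, the inducible HSP90 chaperone, read 2.11, 2.39 and 1.502 FPKM in Sham and 2.66, 3.09 and 3.65 FPKM in I/R, a difference of 0.47 ± 0.21 (limma adjusted p = 0.610) with all I/R hearts above Sham. Evl differed by -0.06, Ppp2r5c by -0.10, Slc25a29 by -0.15 and Wdr20 by 0.07. Degs2, Mok, Slc25a47 and Wdr25 were under the filter.

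Dnm3os, host of miR-199a and miR-214, lies at chr1:162217623-162225550 (plus strand), and its length of 7928 bases equals its genomic span. Its level was 24.1, 22.0 and 21.7 FPKM in Sham and 31.5, 25.4 and 35.4 FPKM in I/R. All I/R hearts were above all Sham hearts, with I/R heart 2 closest to Sham. Here too the 95% intervals from counting alone overlapped for the nearest hearts. They were 23.3 to 27.7 FPKM in I/R heart 2 and 22.1 to 26.3 FPKM in Sham heart 1. The means were 22.6 ± 1.32 and 30.7 ± 5.02 FPKM (SD, n = 3 each), a ratio of 1.36, from 1355 and 1734 reads. The log2 difference was 0.42 ± 0.15 (95% interval 0.05 to 0.78), with an adjusted p of 0.539 in limma, an unadjusted p under 0.05, and 0.1 in the exact permutation test.

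Rian and Dnm3os had nearly the same mean difference, but different hearts carried it: among I/R hearts Rian was highest in heart 2 and Dnm3os lowest there. Across the 6 hearts r was 0.38 (Spearman 0.60, exact permutation p = 0.468 and 0.242) and 0.69 without I/R hearts 1 and 2. With 1 heart left out r was 0.22 without I/R heart 1, 0.24 without Sham heart 3, 0.65 without I/R heart 2 and 0.69 without I/R heart 3. By deviations from the group means r was -0.89. The Dnm3os to Rian ratio differed by 0.00 between groups (exact permutation p = 1.0).

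Dnm3os lies within Dnm3, a dynamin gene of the opposite strand, and whether the counting used strand is unknown here. Dnm3 read 1.92, 1.19 and 0.992 FPKM in Sham and 1.14, 1.09 and 1.55 FPKM in I/R, a difference of -0.05 ± 0.23. Since the table scales mRNA rows and lncRNA rows by separate totals, the levels of the pair cannot be set against each other, but the reads were 283 and 230 for Dnm3. Reads from both strands of the locus cannot be told apart without strand.

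Within 500 kb, 2810442N19Rik (a plus-strand lncRNA about 201 kb upstream) read 23.8, 23.3 and 27.4 FPKM in Sham and 18.7, 12.985 and 17.6 FPKM in I/R. The difference was -0.58 ± 0.17 (adjusted p = 0.468 in limma), and all I/R hearts lay below all Sham hearts. Gm37767 differed by 0.55 ± 0.26 with all I/R hearts higher, on 24 and 41 reads. Gm38304 differed by 0.01, Gm10176 by -0.19 and Gm37357 by 0.18. Of the coding genes, Myoc (myocilin) differed by 0.34 ± 0.33, Pigc by -0.15 and Prrc2c by -0.03. Gm31925, Fasl, Vamp4, Myocos and 4930558K02Rik were under the filter. Farther out on the locus list, Tnfsf18 differed by -0.12 and Tnfsf4 was under the filter. Dnm3os had the only difference above 0 at an unadjusted p under 0.05 in limma among the 6 tested genes of the locus list, whose median was -0.04.

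**Figure D4:**
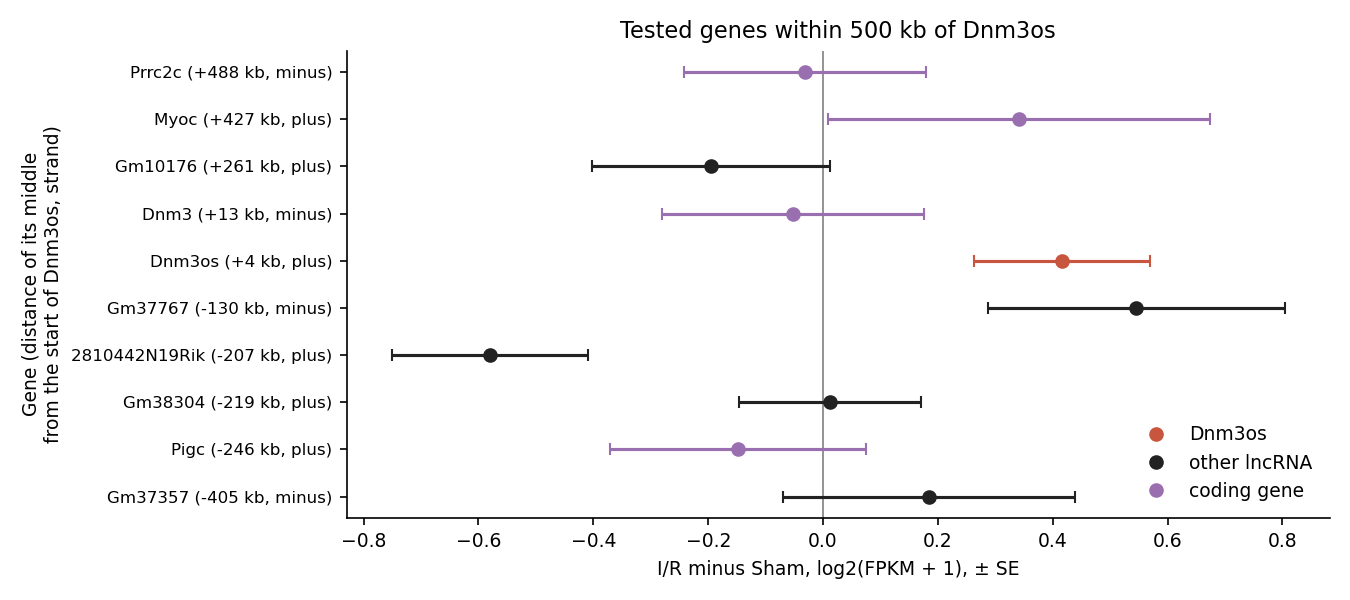
Difference between I/R and Sham in log2(FPKM + 1) with its SE (x axis) for each tested gene within 500 kb of Dnm3os, ordered by distance of the gene's middle from the Dnm3os start. Dnm3os lies at 0.42 and 2810442N19Rik at -0.58, while Dnm3, which contains Dnm3os on the other strand, lies at -0.05.

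Dnm3os is known from mesenchymal cells, where Twist1 and TGF-beta signalling act, so genes of that program were listed beside it. Of 24 listed, 17 were in the table and 14 were tested, with a median of 0.05, 2 higher and 0 lower at an unadjusted p under 0.05, and 0 called after adjustment by limma. Both were fibrillar collagens. Col1a1 read 84.7, 112 and 79.9 FPKM in Sham and 123, 130 and 137 FPKM in I/R (0.51 ± 0.14, limma adjusted p = 0.450). Col3a1 read 56.1, 67.9 and 39.6 FPKM in Sham and 76.2, 71.8 and 74.3 FPKM in I/R (0.47 ± 0.19, limma adjusted p = 0.587).

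The inhibitory Smad, Smad7, differed by -0.48 ± 0.26, the immediate early gene Egr1 by 0.35 ± 0.21, and the receptors Tgfbr3 and Tgfbr1 by -0.33 and -0.26. Twist1 read 2.33 and 2.72 FPKM on average (0.15 ± 0.23). The fibroblast marker list had 12 of 14 genes tested, a median of 0.15, and the same 2 collagens at an unadjusted p under 0.05 in limma. Its summed level was 479 to 554 FPKM in Sham and 574 to 650 FPKM in I/R, without overlap. Of its tested genes only the 2 collagens had all I/R hearts above all Sham hearts. Dpt, Lum and Ogn, also large in the sum, overlapped, so the sum does not show a rise across the list. Of the 12 tested, 9 were above 0 and 3 below. Besides the collagens, Dcn differed by 0.71 ± 0.47, Fbln1 by 0.39 ± 0.20, Lum by 0.23 ± 0.15, Dpt by 0.18 ± 0.11, Tcf21 by 0.12 ± 0.21, Ogn by 0.07, Mfap5 by 0.06, Pdgfra by -0.01 ± 0.29, Pcolce by -0.14 and Pi16 by -0.41. Gsn was under the filter, as was Col1a2, listed at 0 in all hearts but 1, where it had 1 read. Col1a2 was listed with 850 bases, against 5930 for Col1a1, so its reads need not stand for the whole gene. The macrophage list, with 5 of 9 genes tested, also had sums that did not overlap (921 to 1104 FPKM in Sham and 1144 to 1238 FPKM in I/R). Lyz2 made up most of that sum, with means of 626 and 726 FPKM, and Cd14, at 28.1 and 52.3 FPKM, had a difference of 0.83 ± 0.23. The ventricular cardiomyocyte list had a median of -0.22 over 12 genes, 0 higher and 2 lower at an unadjusted p under 0.05. The part of these cell types in the Rian and Dnm3os differences was not tested.

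**Figure D5:**
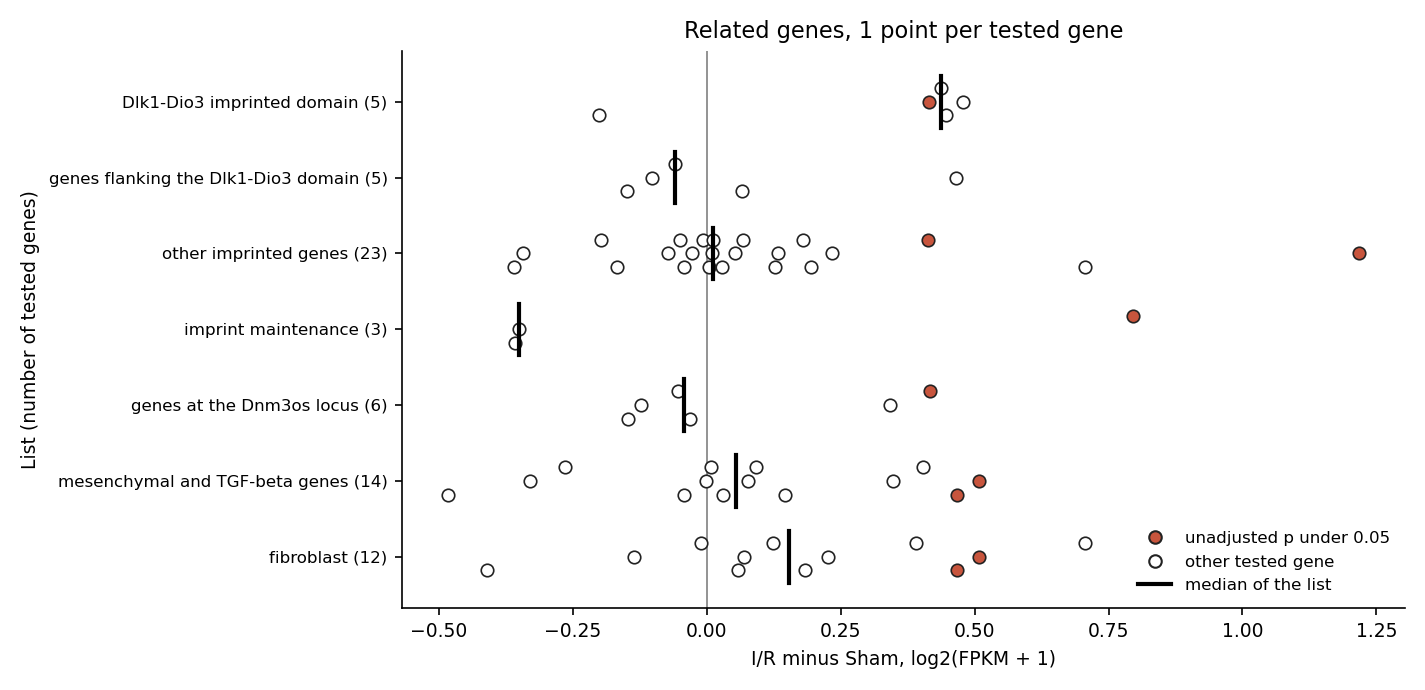
Difference between I/R and Sham in log2(FPKM + 1) (x axis) for each tested gene of the lists named on the y axis; filled points have an unadjusted p under 0.05 in limma and the bar is the list's median. The domain list has a median of 0.44 over 5 tested genes, which include the members Meg3, Rian and Mirg but not Gm37899 (-0.01). The other pathway lists have medians between -0.35 and 0.05, and the fibroblast list has 0.15.

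The imprinted lncRNAs outside the domain showed no common difference. H19 (chr7:142575529-142578143, minus strand, exon length 2286 bases), the fetal lncRNA that hosts miR-675, read 65.6, 57.5 and 111 FPKM in Sham and 176, 70.2 and 55.3 FPKM in I/R. I/R heart 1 held the highest value and I/R heart 3 the lowest of all 6. The difference was 0.23 ± 0.45 in limma (adjusted p = 0.929), and without I/R heart 1 it was -0.26, so its direction rested on that heart. The coefficient of variation between hearts was 36.8% in Sham and 65.4% in I/R, against 4.88% and 4.79% from counting. Its neighbour Igf2, the fetal growth factor, was under the filter with 22 and 24 reads.

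Kcnq1ot1 (chr7:143203458-143296549, minus strand) was counted over its whole span of 93092 bases, within Kcnq1, the potassium channel gene of the opposite strand. Its level was 53.0, 48.3 and 39.0 FPKM in Sham and 38.9, 52.9 and 41.6 FPKM in I/R, from 33312 and 29927 reads, and the groups overlapped. The difference was -0.07 ± 0.17 (limma adjusted p = 0.942). Kcnq1 itself differed by 0.20 ± 0.30, and without strand reads of the 2 genes cannot be told apart. The Kcnq1ot1 to Rian ratio was 2.102, 1.73 and 1.51 in the Sham hearts, against 1.05, 1.29 and 1.42 in the I/R hearts, without overlap. The log2 difference was -0.50 (exact permutation p = 0.1, the smallest possible). Rian, the denominator, by itself had all I/R hearts above all Sham hearts (difference 0.41), so this ratio is not independent of that result.

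Airn (chr17:12741311-12860122, plus strand, exon length 1375 bases), which starts inside Igf2r and runs against it, was the most abundant member per length. Its level was 440, 388 and 374 FPKM in Sham and 517, 403 and 314 FPKM in I/R, and the I/R hearts lay on both sides of the Sham hearts. The difference was 0.01 ± 0.18 (limma adjusted p = 0.994). Igf2r, the receptor that clears IGF2 and is the target of silencing by Airn, read 190, 189 and 211 FPKM in Sham and 222, 222 and 200 FPKM in I/R (0.13 ± 0.09). The same limit on strand holds for this pair. The Airn to Rian ratio differed by -0.42 (exact permutation p = 0.2) and the H19 to Rian ratio by -0.19 (exact permutation p = 0.7). In mean FPKM over the 6 hearts the order was Airn (406), H19 (89.2), Kcnq1ot1 (45.6), Rian (31.0), Dnm3os (26.7), Meg3 (23.8) and Mirg (6.91). Neighbours in the order by FPKM overlapped in range over the hearts except Airn with H19, H19 with Kcnq1ot1, and Meg3 with Mirg.

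Of the wider imprinted list, 58 genes were listed, 34 were in the table and 23 were tested, with a median of 0.01, 2 higher and 0 lower at an unadjusted p under 0.05 and 0 called after adjustment by limma. Asb4, a SOCS-box protein gene of the Peg10 cluster, read 1.502, 1.63 and 0.726 FPKM in Sham and 2.84, 5.80 and 4.47 FPKM in I/R (1.22 ± 0.29, limma adjusted p = 0.388, 41 and 124 reads). Ndn, which encodes necdin, read 6.23, 6.88 and 6.10 FPKM in Sham and 8.66, 9.80 and 8.16 FPKM in I/R (0.41 ± 0.16, limma adjusted p = 0.559). Snhg14, the snoRNA host of the Prader-Willi and Angelman region, read 114, 120 and 105 FPKM in Sham and 99.1, 95.9 and 99.8 FPKM in I/R, all lower (-0.20 ± 0.09, limma adjusted p = 0.614). Nap1l4 differed by -0.36, Commd1 by -0.34 and Dcn by 0.71 ± 0.47.

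Of 17 listed genes for upkeep of imprints, 5 were in the table and 3 were tested, with a median of -0.35. Trim28, the corepressor recruited by KRAB zinc fingers to imprinting control regions, read 2.24, 2.62 and 3.49 FPKM in Sham and 5.89, 5.72 and 4.96 FPKM in I/R, without overlap (0.80 ± 0.20, limma adjusted p = 0.402). Zfp445, a KRAB zinc finger of that pathway, differed by -0.36 with all I/R hearts lower, on 27 and 12 reads. The DNA methyltransferase gene Dnmt3a differed by -0.35 ± 0.27. Zfp57 and Jarid2 were under the filter.

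Finally, the 6623 genes that averaged 5 FPKM or more were ranked by their Pearson correlation with each member over the 6 hearts, as a description. The 6 points are few, and the group difference is part of every correlation. For Meg3 the first 5 were Ptgs2 (0.997), Slc39a1, Gm43289, Gm6420 and Jun (0.988). Ptgs2 encodes the inducible cyclooxygenase and Jun an AP-1 factor, and they differed between groups by 1.11 (limma adjusted p = 0.648) and 0.76 (limma adjusted p = 0.598). For Rian they were R74862 (0.995), Cd14 (0.995), Gm50252, Dnaja4 and Usp32. Cd14, the lipopolysaccharide co-receptor of myeloid cells, read 26.6, 30.9 and 26.9 FPKM in Sham and 58.2, 63.9 and 35.0 FPKM in I/R, with the same low I/R heart 3 as Rian.

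For Mirg the first 5 were Igf2r (0.989), Dtnbos, Gas6, Nt5dc1 and Gm43079, and for Dnm3os Rab5a (0.992), Wdr43, Mrps28, Gm20703 and Gm16998. For H19 they were D830035M03Rik (0.983), 4933431E20Rik, Irf2bp2, Gm26838 and Glo1. For Kcnq1ot1 they were Gm37015 (0.978), Gm5860, Dnmt3aos, Gm16725 and Gm48780. For Airn they were Gm17092 (0.981), Ybey, Tmem50b, Gm26724 and Mir100hg. No member was among the first 5 of another. Meg3 ranked 1324 for Rian and Mirg ranked 248, while Rian ranked 1088 for Meg3.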

How the data were processed

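The authors deposited 1 table of FPKM per transcript for the 6 hearts. Per the submitters' processing notes the tools included HISAT2 2.1.0, HTSeq 0.10.0, fastp 0.23.0 and bcl2fastq 2.19.1.403; the sources used here give neither strand settings nor annotation. After removal of 40 repeated rows, the table held 11745 mRNA and 9413 lncRNA rows. Coordinates were those of the table: 99.4% of 11864 genes overlapped the GRCm38 gene of the same symbol by at least 50%. FPKM of the listed transcripts of 1 coding gene were summed, so a coding level covers those transcripts only. Differences were tested with limma 3.58.1 (R 4.3.3) on log2(FPKM + 1) with a pseudocount of 1, a variance trend and Benjamini-Hochberg adjustment over the 12115 genes that averaged 0.5 FPKM or more; a fold change on this scale understates that of low genes. Single values were tested with an exact two-sided permutation test. Whole reads were recovered from the FPKM steps (9413 of 9413 lncRNA rows, within 1e-05 of a whole number for low counts), which gave depth and counting error. The length given for a transcript is the smallest whole length that made its values whole reads in all 6 hearts. mRNA and lncRNA rows are scaled by separate totals. On simulated data for this comparison (12114 genes, fold changes spread over all levels), limma recovered 7 of 100 2-fold changes and 68 of 100 4-fold changes, and called 9 of 11914 genes simulated with no change. The simulation gave every gene the same spread between hearts beyond counting, not estimated from these data. Its rates need not hold for genes that vary more or less. The members and gene lists were chosen with earlier results of these data known. Genes named are the members, the genes of the domain, flank and Dnm3os locus lists, lncRNAs of the interval or within 500 kb, up to 6 genes of each other list by smallest p, and the 5 genes most correlated with each member. Some genes named beyond that rule (Twist1, the fibroblast markers, Lyz2, Igf2, Kcnq1, Myl7, Sln and Nppa) were chosen with their values known.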

Additional observations from a re-analysis of the deposited data

How the results depend on the processing

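Meg3, Rian, Mirg and Dnm3os kept a difference above 0 and an adjusted p above 0.05 in limma under all 21 alternatives each (pseudocount, filter, scaling, variance model, lncRNAs alone, voom on recovered reads, replicate block and each heart left out). With hearts left out in turn, Rian ranged from 0.31 (without I/R heart 2) to 0.55, Dnm3os from 0.31 (without I/R heart 3) to 0.54, Meg3 from 0.28 (without Sham heart 1) to 0.67 (without I/R heart 1), and Mirg from 0.33 to 0.62. H19 ranged from -0.26 (without I/R heart 1) to 0.57, Kcnq1ot1 from -0.20 to 0.0227 (above 0 without Sham heart 1 or I/R heart 1) and Airn from -0.17 (without I/R heart 1) to 0.19, also below 0 without Sham heart 2 or 3. The adjusted p of Rian in limma ranged from 0.434 to 0.773 over all alternatives, that of Dnm3os from 0.434 to 0.774, that of Meg3 from 0.395 to 0.878 and that of Mirg from 0.574 to 0.869. An unadjusted p under 0.05 was kept by Rian in 2 of the 6 fits without 1 heart and in all 15 other settings, and by Dnm3os in 2 of 6 and in 14 of 15, the exception being lncRNAs fitted alone. Meg3 came under 0.05 with the replicate block, with voom and without I/R heart 1, and Mirg without I/R heart 3. Airn reversed to -0.0154 with quantile normalization and -0.0377 with array weights; the cause was not tested. With the replicate block, a fit that removes the mean of each replicate number, the differences stayed the same by construction (Rian 0.41, adjusted p = 0.483 in limma; Dnm3os 0.42, adjusted p = 0.514; Meg3 0.45, adjusted p = 0.448) and 0 genes passed the adjusted threshold. The labels do not say whether same-numbered hearts belong together, and the main fit treats them as unpaired. Deviations of same-numbered hearts from their group means correlated at 0.153, 0.0283 and 0.0289, the first being the highest of all pairs. Sham hearts 1 and 3 correlated best with the I/R heart of their number, and Sham heart 2 with I/R heart 3 (0.111). With 3 hearts a group these values cannot decide whether a pairing exists. Genes at an unadjusted p under 0.05 numbered 1023 as reported, 640 with a filter of 5 FPKM, where fewer genes were tested, and 572 when lncRNAs were fitted alone, against 766 for the same lncRNAs in the fit of all genes; the cause of that fall was not tested. The median of the non-member lncRNAs of the interval was 0.23, -0.01 with a filter of 1 FPKM, which drops Gm34719, and 0.48 with a filter of 5 FPKM, which leaves B830012L14Rik alone. The correlation of Rian with Dnm3os was -0.89 by deviations from the group means and 0.22 to 0.69 with 1 heart left out. Scaling of lncRNAs by totals without the 10 most abundant lncRNAs, or by the mRNA totals, was added after seeing the data and changed no direction among the 7 members. Mirg, with 160 and 223 reads per group, is limited by counting as well as by the number of hearts.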
